A study of Drosophila melanogaster with 16 samples.

Results

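The genes described here encode the enzymes of the core of glycolysis, from phosphoglucose isomerase to pyruvate kinase, together with lactate dehydrogenase. They were taken by name from the count table as Pgi, Pfk, Ald1, Tpi, Gapdh1, Gapdh2, Pgk, Eno, Pyk and Ldh, 10 of 17207 genes, with Pyk listed there as PyK. All 10 were among the 12750 genes that had enough reads to be tested. The RNA-seq libraries came from female wandering larvae of the third instar that carried either Alstonville or Dahomey mtDNA and were fed a 1:2 or a 1:16 P:C diet, named for the proportion of protein (P) to carbohydrate (C). Each of the 4 combinations had 4 libraries, Alstonville 1:2, Dahomey 1:2, Alstonville 1:16 and Dahomey 1:16. Both mitotypes shared the w1118 nuclear background, built by chromosome replacement with balancers, and the lines were backcrossed further. Chromosome replacement left the lines different in mtDNA and in chromosome 4. Both diets had the same energy content and were made from yeast, semolina, treacle and sucrose and a fly homogenate was added to the bottles to set the microbiome. The labels call the 4 libraries of a group independent, but how many larvae went into each was not given in the sources used here. The comparison of mitotypes on each diet was made by the study to find expression changes that go with the diet dependence of larval development.

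Glycolysis splits glucose into pyruvate in the cytosol. In the first part of the pathway ATP is spent to prepare and cleave the sugar, and in the second part ATP and NADH are gained. Lactate dehydrogenase reduces pyruvate to lactate and returns NAD+ to the pathway, and in Drosophila larvae its activity together with high expression of the glycolytic genes is known to go with rapid growth on sugar. The oxidation of pyruvate in mitochondria, by contrast, depends on the respiratory chain that mtDNA partly encodes.

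In the Release 6 plus ISO1 MT assembly Pgi lies at 2R:8910900-8914069 on the minus strand, Pfk at 2R:10109740-10117457 on the plus strand and Gapdh1 at 2R:7791901-7793380 on the minus strand. Ald1 lies at 3R:26254069-26261591 (minus), Tpi at 3R:30132981-30134599 (minus) and Pyk at 3R:22367536-22372746 (plus). Gapdh2 is at X:15868145-15869661 (plus), Pgk at 2L:2746880-2753068 (minus), Eno at 2L:1724768-1729636 (minus) and Ldh at 3L:6259105-6262694 (minus). None is on the mtDNA or on chromosome 4. Genes on the opposite strand overlap 3 of them, asRNA:CR44321 at Ald1, Rrp40 at Eno, and Cwc25 and Bacc at Pgk. Whether reads were counted by strand was not given in the sources used here, so the values of these 3 may hold reads of the overlapping genes. Gapdh1 and Gapdh2 are closely similar paralogs, and how reads fitting both were counted was not given either.

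The libraries held 24869991 to 31896525 counts each. The 10 genes together took 0.219 to 1.19% of them and the lowest count of any of the 10 in any library was 1346, so counting error was small beside the differences between libraries. Levels are given as CPM, counts relative to library size, after TMM scaling of the library sizes. Defining markers of muscle, fat body, midgut and neurons had reads in every library. The labels mention sorted cells and the methods of the study whole larvae, and these markers show that several tissues were present. Transcripts of 8 male and testis markers summed to between 13.7 and 866 CPM, and roX1, an RNA of the male dosage compensation complex, ran from 13 to 685 CPM by library in larvae labelled female. These are bulk samples, in which more cells of a type and more RNA per cell cannot be told apart.

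A pair of libraries was singled out after the values of the 10 genes and of tissue markers had been seen. In Alstonville 1:2 replicate 4 the 10 genes summed to 11649 CPM, whereas replicates 1 to 3 gave 1886, 2868 and 2791 CPM. In Dahomey 1:16 replicate 2 they summed to 7494 CPM, the lowest of all libraries from the 1:16 diet, while the other replicates gave 10896, 13562 and 11655 CPM, and by the 10 genes alone it did not pass Dixon's outlier test. The first of these libraries was also high in muscle markers, with a summed level of 36326 CPM over 12 genes against 2977 to 9835 CPM in the rest of its group. The second held 3481 CPM of transcripts of 7 salivary glue genes, which are switched on in the salivary glands during the third instar, where the other libraries from the 1:16 diet held 4.79 to 7.18 CPM. Results that rest on these libraries are given with and without them, and since both had been picked partly by the levels of the 10 genes, the values without them are descriptions.

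**Figure D1:**
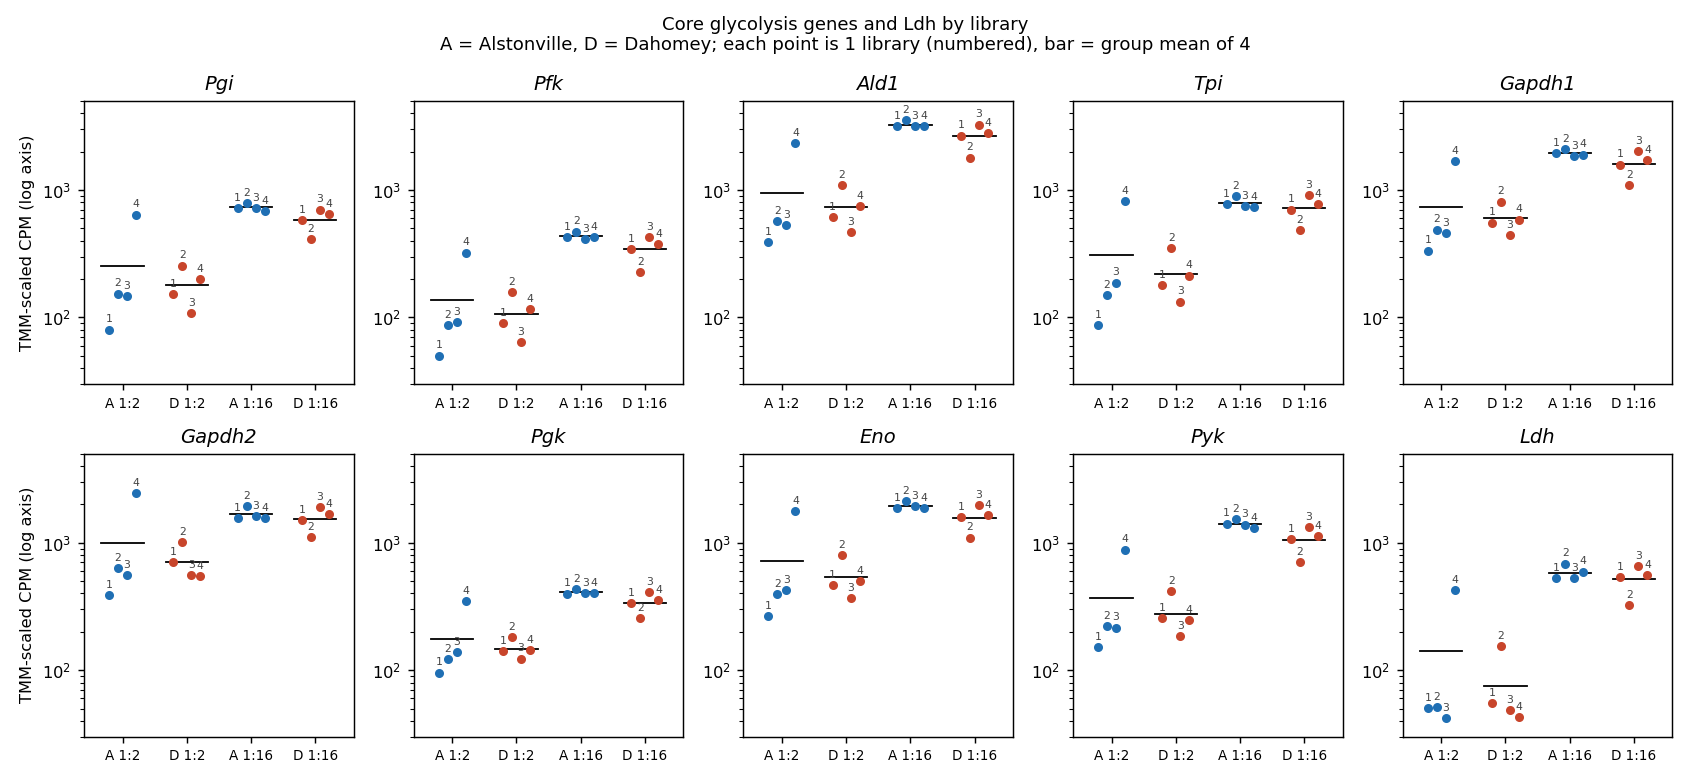
TMM-scaled CPM (log axis) of the 10 genes in each of the 16 libraries, by mitotype (A Alstonville, D Dahomey) and diet, with the mean of the 4 libraries as a bar. The libraries from the 1:16 diet sit high in every panel, and Alstonville 1:2 replicate 4 (11649 CPM over the 10 genes) lies far above the rest of its group.

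Diet was the comparison in which these genes changed. On the 1:16 P:C diet 9 of the 10 were higher than on the 1:2 diet in Alstonville and 9 of 10 in Dahomey at an adjusted p under 0.05 (edgeR quasi-likelihood, Benjamini-Hochberg over all genes tested). The exception was Gapdh2 in both. Of all genes tested 30.6% were called higher on 1:16 in Alstonville and 24.6% in Dahomey. The median log2 fold change of the 10 was 1.48 in Alstonville and 1.70 in Dahomey, where the median of all genes tested was -0.11 and -0.12. The libraries of the 2 diets did not overlap for 8 of the 10 in Alstonville and for all 10 in Dahomey, against 29.1 and 25.1% of all genes tested with libraries wholly higher on 1:16.

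Ldh, the single lactate dehydrogenase among the 10, had the largest difference in both mitotypes. Its level was 50.5, 51.5, 41.9 and 426 CPM in the Alstonville 1:2 libraries and 524, 685, 530 and 594 CPM in those of Alstonville 1:16. In Dahomey it was 55.1, 155, 48.5 and 42.9 CPM on the 1:2 diet and 537, 322, 659 and 554 CPM on the 1:16 diet. All libraries from the 1:16 diet but Dahomey replicate 2 lay above every library from the 1:2 diet, and within each mitotype the diets did not overlap. Ldh rose by 2.03 ± 0.70 (SE) on the log2 scale in Alstonville (adjusted p = 0.0228) and by 2.78 ± 0.72 in Dahomey (adjusted p = 0.00599). The value in Alstonville rested on single libraries: it ran from 1.73 without replicate 3 of the 1:2 diet to 3.6 without replicate 4, and the call was lost without replicate 1, 2 or 3 of that diet, with adjusted p values of 0.0550 to 0.0616. Among the 1:2 libraries Alstonville replicate 4 and Dahomey replicate 2 were high, and the other 6 lay between 41.9 and 55.1 CPM.

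Of the enzymes of the first part of the pathway, Pfk, phosphofructokinase, catalyses the committed step. Its level ranged from 50.1 to 322 CPM in Alstonville and from 64.3 to 157 CPM in Dahomey on the 1:2 diet, and from 409 to 471 CPM and from 226 to 425 CPM on the 1:16 diet. It rose by 1.66 ± 0.47 on the log2 scale in Alstonville (adjusted p = 0.00805) and by 1.68 ± 0.47 in Dahomey (adjusted p = 0.00937). Pgi, which converts glucose phosphate to fructose phosphate one step earlier, rose by 1.52 ± 0.51 and 1.71 ± 0.51 (adjusted p = 0.0198 and 0.0130).

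Ald1, the aldolase that cleaves the sugar bisphosphate, was the most abundant of the 10 in CPM on the 1:16 diet. It gave 387, 567, 532 and 2329 CPM in Alstonville 1:2 and 3173, 3523, 3166 and 3169 CPM in Alstonville 1:16. The Dahomey libraries gave 614, 1090, 466 and 746 CPM on the 1:2 diet and 2662, 1794, 3255 and 2800 CPM on the 1:16 diet. The 4 libraries of Alstonville 1:16 thus lay within a narrow range, and no library from the 1:2 diet reached it. Ald1 rose by 1.77 ± 0.48 in Alstonville and 1.85 ± 0.48 in Dahomey (adjusted p = 0.00630 and 0.00647).

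Tpi, triosephosphate isomerase, interconverts the products of aldolase. It gave 87.5, 150, 187 and 813 CPM in Alstonville 1:2, and 773, 888, 747 and 736 CPM in Alstonville 1:16, so that replicate 4 of the 1:2 diet overlapped the 1:16 libraries. The log2 fold change was 1.35 ± 0.55 in Alstonville, with an adjusted p of 0.0491 close to the threshold, and 1.71 ± 0.56 in Dahomey (adjusted p = 0.0210), where levels went from 133 to 351 CPM on 1:2 and from 484 to 910 CPM on 1:16. The call in Alstonville held in 1 of the 16 fits that left out 1 library each.

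In the second part of the pathway Gapdh1 and Gapdh2 are paralogs for glyceraldehyde-3-phosphate dehydrogenase, which makes the NADH that lactate dehydrogenase uses. Gapdh1 rose on the 1:16 diet by 1.40 ± 0.42 in Alstonville and 1.42 ± 0.42 in Dahomey (adjusted p = 0.0110 and 0.0123). Gapdh2 had log2 fold changes of 0.74 ± 0.46 and 1.13 ± 0.46 and did not pass (adjusted p = 0.174 and 0.0577). Its libraries gave 386, 631, 553 and 2438 CPM in Alstonville 1:2 and 1554, 1947, 1622 and 1555 CPM in Alstonville 1:16, so the highest of the 8 came from the 1:2 diet. In Dahomey they gave 707, 1006, 560 and 545 CPM on 1:2 and 1505, 1104, 1901 and 1676 CPM on 1:16, without overlap.

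Pgk, phosphoglycerate kinase, catalyses the earlier of the ATP-yielding steps and had the smallest standard errors of the 10. It rose by 1.21 ± 0.32 in Alstonville and 1.20 ± 0.32 in Dahomey (adjusted p = 0.00528 and 0.00728), from 95.9 to 350 and 123 to 182 CPM on 1:2 to 399 to 435 and 256 to 407 CPM on 1:16. Eno, enolase, rose by 1.45 ± 0.49 and 1.55 ± 0.49 (adjusted p = 0.0204 and 0.0174). Its levels were 264 to 1774 and 369 to 803 CPM on 1:2, and 1870 to 2123 and 1097 to 1961 CPM on 1:16.

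Pyk, the pyruvate kinase of the last step, had the second largest difference in both mitotypes and the lowest adjusted p. Its libraries gave 151, 221, 216 and 883 CPM in Alstonville 1:2 and 1410, 1524, 1387 and 1307 CPM in Alstonville 1:16. In Dahomey they gave 258, 419, 185 and 246 CPM on 1:2 and 1073, 706, 1327 and 1125 CPM on 1:16. Even the highest library from the 1:2 diet within a mitotype stayed below the lowest from the 1:16 diet. Pyk rose by 1.94 ± 0.47 in Alstonville and 1.93 ± 0.47 in Dahomey (adjusted p = 0.00316 and 0.00434).

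The number of calls depended on single libraries. In Alstonville it was 5 of 10 without replicate 2 or without replicate 3 of the 1:2 diet, where Pgi, Tpi, Eno and Ldh were no longer called, and 7 without replicate 1, where Tpi and Ldh were not. In Dahomey it was 7 without replicate 3 of the 1:2 diet, where Tpi and Eno were lost, and 8 without replicate 1 of that diet or replicate 3 of the 1:16 diet, where Tpi was lost. With only the 8 Alstonville libraries in the fit it was 4, namely Pfk, Ald1, Pgk and Pyk. Without both libraries singled out above it was 10 in each mitotype, with log2 fold changes of 1.67 to 3.6 in Alstonville (median 2.49) and 1.27 to 2.96 in Dahomey (median 1.84). That setting removes the highest library of a 1:2 group and the lowest of a 1:16 group, so larger differences follow from its construction and it is no support for them. DESeq2 gave an adjusted p for 6 of the 10 in each mitotype and called all 6. It gave none for Pgi, Ald1, Gapdh2 and Ldh, so it did not judge these.

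**Figure D2:**
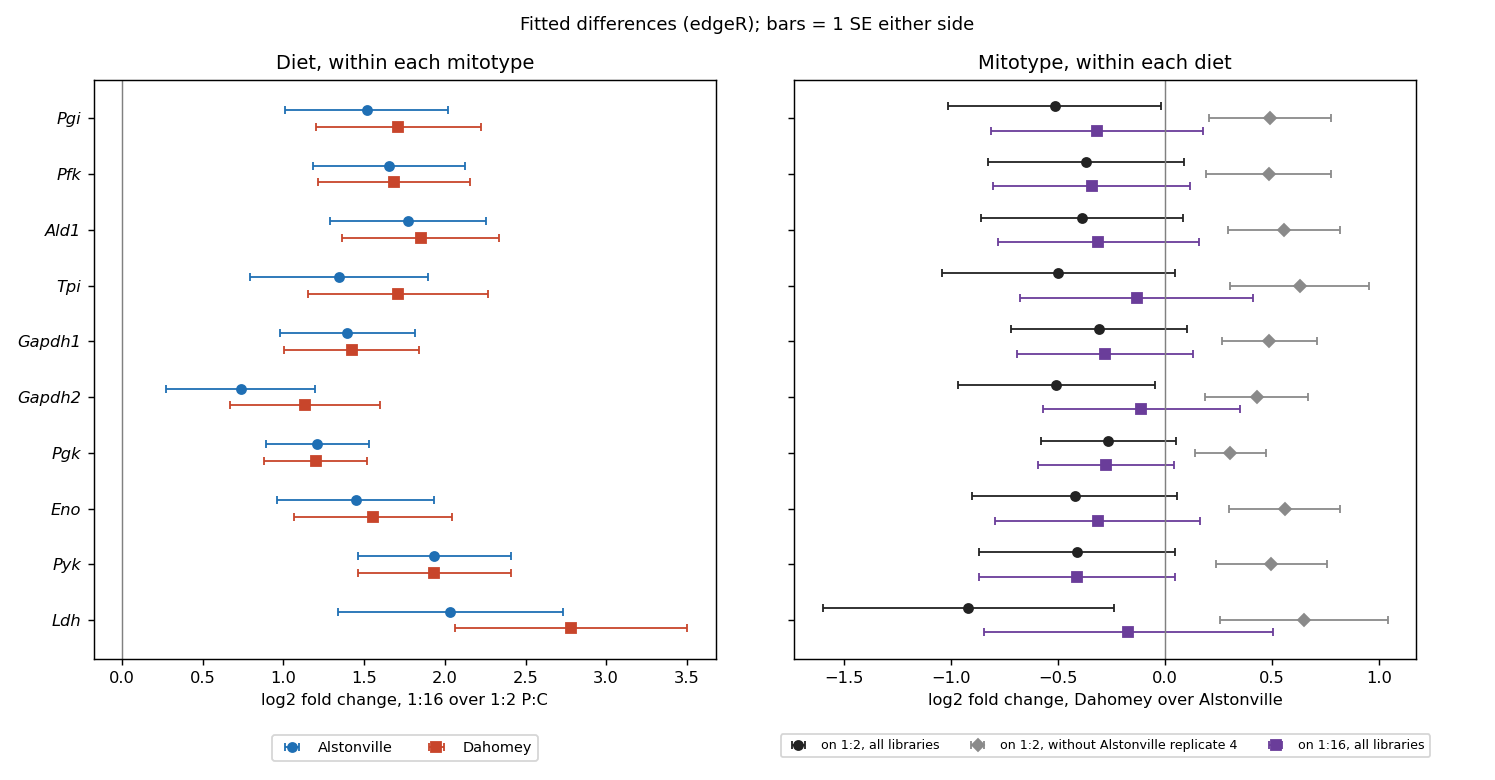
Fitted log2 fold changes of the 10 genes with bars of 1 SE. For diet (1:16 over 1:2) the points lie between 0.74 and 2.78 in both mitotypes, and for mitotype (Dahomey over Alstonville) they lie between -0.92 and -0.11, except on the 1:2 diet without Alstonville replicate 4, where they lie between 0.31 and 0.65.

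Muscle markers moved with diet in the same libraries. Of 12 such genes 11 rose on 1:16 in Alstonville and 11 in Dahomey, with median log2 fold changes of 2.27 and 2.17, both larger than those of the glycolytic genes. Their summed level was 2977 to 36326 CPM in Alstonville 1:2, 4507 to 15446 CPM in Dahomey 1:2, 69794 to 79983 CPM in Alstonville 1:16 and 33772 to 66864 CPM in Dahomey 1:16. The order of the libraries within a group was close to that of the glycolytic genes: the highest library of every group in the one sum was the highest in the other. Of 6 fat body markers 4 fell on 1:16 in Alstonville and 3 in Dahomey, while 1 and 2 had positive values, 0 of them called. The summed level of the 6 was 47630 to 145233 and 55495 to 88102 CPM on 1:2 and 5380 to 35834 and 31897 to 48682 CPM on 1:16. In Dahomey Lsp1beta ran from 3673 to 10144 CPM on 1:2 and from 16875 to 26036 CPM on 1:16. All 7 glue genes fell in Alstonville, and in Dahomey all 7 had negative values and 4 were called. Their summed level on 1:2 was 9492 to 15612 CPM in Alstonville and 11584 to 18311 CPM in Dahomey. On 1:16 it was 5.09 to 7.18 CPM in Alstonville and 4.79 to 3481 CPM in Dahomey, the highest in replicate 2. Of 8 midgut markers 4 rose and 2 fell in Alstonville, and 3 rose and 2 fell in Dahomey. The part of these tissue differences in the glycolytic differences was not tested, nor was whether larval stage differed between the diets.

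**Figure D3:**
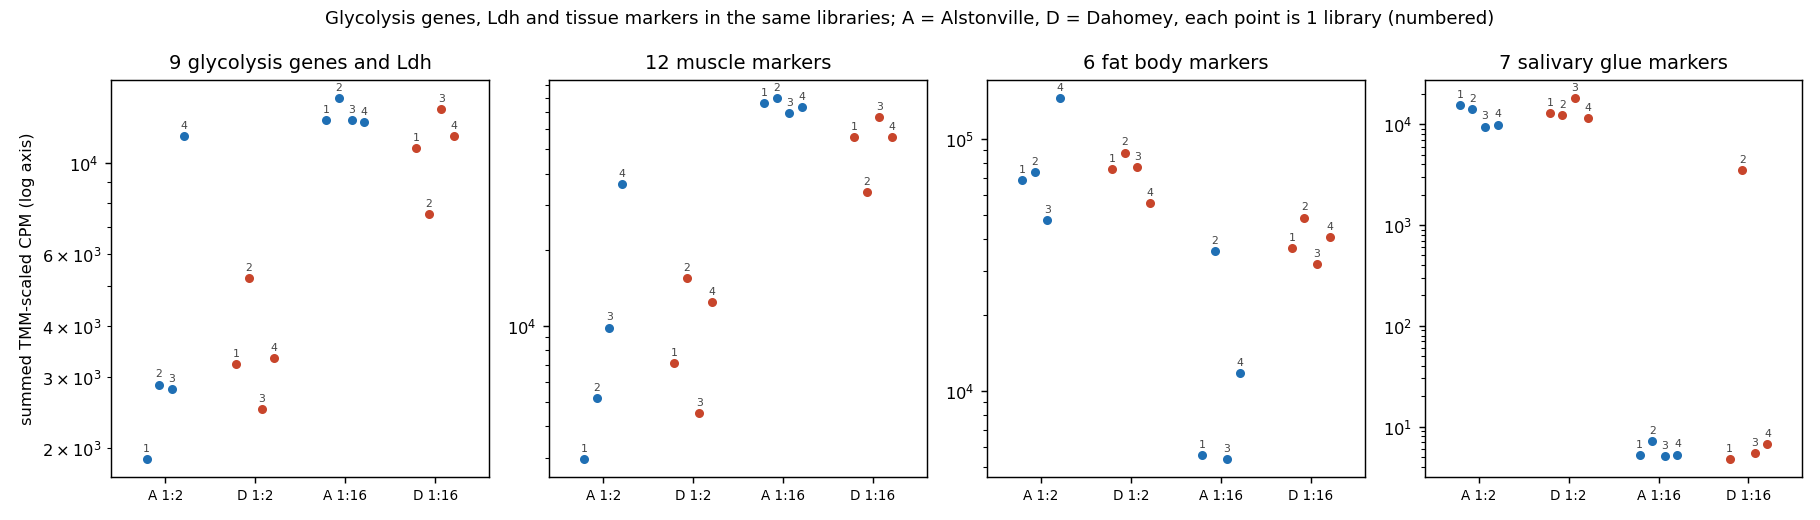
Summed TMM-scaled CPM (log axes) of the 10 genes and of muscle, fat body and salivary glue markers in the same 16 libraries, by mitotype (A, D) and diet. Alstonville 1:2 replicate 4 is high in the glycolytic sum (11649 CPM) and in muscle markers (36326 CPM), and Dahomey 1:16 replicate 2 is the only library from the 1:16 diet with glue transcripts above 7.18 CPM.

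Between mitotypes none of the 10 genes was called on either diet. On the 1:2 diet all 10 had lower fitted levels in Dahomey, with log2 fold changes of -0.92 to -0.26 (median -0.42, and 0.03 over all genes tested) and an adjusted p of 0.976 for each. The unadjusted p ran from 0.198 to 0.468, with 0 under 0.05, and DESeq2 called 0 of the 6 for which it gave an adjusted p. Of all genes tested 0.0941% were called on this diet. The direction rested on 1 library. Without Alstonville 1:2 replicate 4 all 10 were higher in Dahomey, by 0.31 (Pgk) to 0.65 (Ldh), with an adjusted p of 1 for each. For Ldh the 95% interval of the difference with all libraries ran from -2.38 to 0.54, and for Pgk, the narrowest, from -0.95 to 0.42.

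On the 1:16 diet the fitted levels of all 10 were again lower in Dahomey, with log2 fold changes of -0.41 (Pyk) to -0.11 (Gapdh2), a median of -0.29 and adjusted p values of 0.534 to 0.879. Of the 10, 0 had an unadjusted p under 0.05, and DESeq2 called 0 of 6. On this diet 15.3% of all genes tested were called. Pyk gave 1407 ± 89.7 CPM (SD, n = 4) in Alstonville and 1058 ± 259 CPM in Dahomey, and the libraries overlapped, as they did for each of the 10. Replicate 2 was the lowest of the Dahomey libraries for each of the 10. Without it and Alstonville 1:2 replicate 4 the median was -0.16, Tpi, Gapdh2 and Ldh were at 0.02, 0.02 and 0.0018, and 0 were called. The study used limma-trend with a number of surrogate variables (estimated hidden factors) that was not given in the sources used here. With 3 of them 7 of the 10 were called lower in Dahomey, whereas with 0, 1 or 2 surrogate variables 0 were. The 7 were Pgi, Pfk, Ald1, Gapdh1, Pgk, Eno and Pyk, and their adjusted p values ran from 0.00176 for Pyk to 0.0412 for Pgi. In that fit 6692 of the 12750 genes tested were called, where the main one called 1952. The study itself named Pfrx, Hex-C, Scsalpha and CG7069 as the glycolysis genes that differed between mitotypes, and none of the 10. The choice of scaling also mattered to the background of this comparison: upper-quartile factors shifted the median of all genes by 0.13 relative to TMM, and with them Tpi and Gapdh2 were at 0.0075 and 0.03. Tissue markers differed between mitotypes on this diet too. All 7 glue genes were called higher in Dahomey (median 6.91), where replicate 2 alone held more than 7.18 CPM of them. Of 6 fat body markers 2 were called higher and all 6 had positive values (median 2.92), 1 of 8 midgut markers was called lower, and of 6 neuron markers 1 was called higher and 2 lower. For muscle all 12 values were negative, with a median of -0.50 and 0 called. All 8 male and testis markers had positive values, with a median of 1.76 and 0 called. The part of these differences in the glycolytic values was not tested.

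The interaction of mitotype and diet, that is the mitotype difference on 1:16 minus that on 1:2, was called for 0 of the 10 and for 0.784% of all genes tested. Its median over the 10 was 0.09 and it was largest for Ldh, at 0.75 ± 0.95 (95% interval -1.30 to 2.80, adjusted p = 0.739). Of the 10, 0 had an unadjusted p under 0.05, and DESeq2 called 0 of 6. Without Alstonville 1:2 replicate 4 the interaction was negative for all 10, from -0.91 to -0.54, with adjusted p values of 0.143 to 0.362.

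Levels between genes can be compared only per length. In CPM per kb of exon sequence the order in Alstonville 1:16 was Gapdh1 (1312 ± 75.5, SD, n = 4), Gapdh2 (1157 ± 130), Ald1 (855 ± 46.4), Pyk (628 ± 40.0), Eno (525 ± 31.8), Tpi (505 ± 44.8), Ldh (300.3 ± 38.4), Pgi (296 ± 17.5), Pgk (194 ± 8.07) and Pfk (99.1 ± 5.98). Within libraries each gene exceeded the next in all 4, except that Ldh exceeded Pgi in 2 of 4. In Dahomey 1:16 the order was the same but for Tpi and Eno, which changed places, and Gapdh1 exceeded Gapdh2 in 2 of 4 libraries and Ldh exceeded Pgi in 3 of 4. On the 1:2 diet Gapdh2 came before Gapdh1, and Ldh fell to the second lowest place. In Dahomey 1:2 it gave 38.8 ± 27.3 CPM per kb, above Pfk (24.3 ± 9.02) in 3 of 4 libraries, while in Alstonville 1:2 it gave 73.3 ± 97.3 and exceeded Pfk in all 4. Other neighbours that did not keep their order in all libraries of the 1:2 groups were Tpi and Eno, Pgi and Pgk, in Alstonville Pgk and Ldh, and in Dahomey Gapdh2 and Gapdh1. Pfk, the committed step, had the lowest mean in every group.

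The makeup of the sum changed with diet as well. Ald1 made up 19.8 ± 0.596% of the 10 genes' CPM in Alstonville 1:2 and 24.8 ± 0.313% in Alstonville 1:16, and in Dahomey 20.3 ± 1.73% and 24.1 ± 0.225%. Pyk went from 7.76 ± 0.190 to 10.7 ± 0.311% in Alstonville and from 7.70 ± 0.356 to 9.68 ± 0.190% in Dahomey, and Ldh from 2.41 ± 0.970 to 4.42 ± 0.340% and from 1.98 ± 0.709 to 4.71 ± 0.286%. Gapdh2 took 20.8 ± 0.916% in Alstonville 1:2 and 12.7 ± 0.578% in Alstonville 1:16, and 20.0 ± 2.81% and 14.2 ± 0.408% in Dahomey. For Ald1, Pyk, Ldh and Gapdh2 the libraries of the 2 diets did not overlap within a mitotype. Eno stayed between 13.8 and 15.4% in every library.

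The levels of the paralogs were also set against each other within libraries. Gapdh1 made up 46.3, 43.6, 45.2 and 40.7% of the counts of both in Alstonville 1:2 and 55.4, 51.9, 53.2 and 54.9% in Alstonville 1:16, without overlap. In Dahomey it made up 43.9, 44.6, 44.0 and 51.7% on 1:2 and 51.2, 49.7, 51.5 and 50.6% on 1:16, where replicate 4 of the 1:2 diet exceeded all 4. That library also held the most male and testis transcripts, 866 CPM against 13.7 to 214 CPM in the rest of its group, and their part in its share was not tested. The share was higher on 1:16 by 9.88 percentage points in Alstonville (exact two-sided permutation test, p = 0.0286, adjusted over 4 comparisons 0.0571) and by 4.68 points in Dahomey (exact p = 0.143, adjusted 0.190). On the 1:16 diet it was lower in Dahomey by 3.11 points, again without overlap between 50.7 ± 0.786% and 53.9 ± 1.59% (exact p = 0.0286, adjusted 0.0571). On the 1:2 diet the means were 46.1 ± 3.79% in Dahomey and 44.0 ± 2.43% in Alstonville (exact p = 0.486). With 4 libraries against 4 the smallest p this test allows is 0.0286. Only diet in Alstonville and mitotype on 1:16 reached it, and none of the 4 comparisons passed after adjustment. A ratio within a library does not depend on scaling, but it does depend on how reads shared by the paralogs were counted.

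**Figure D4:**
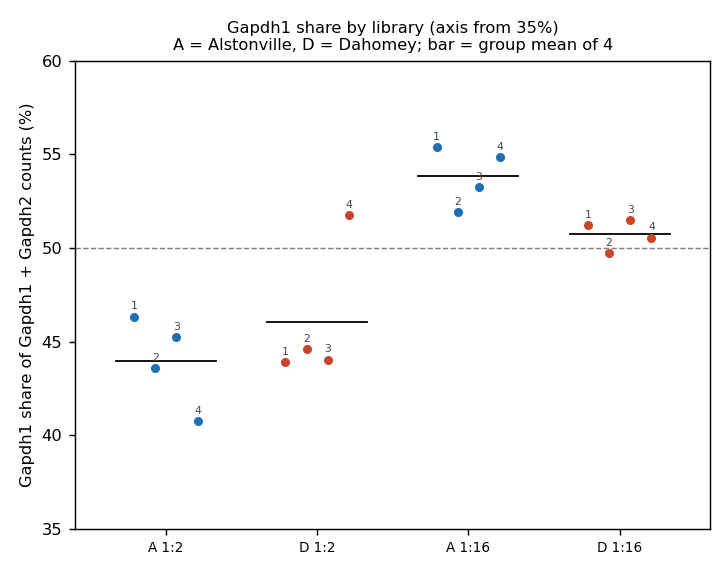
Gapdh1 counts as a percentage of Gapdh1 and Gapdh2 counts in each library (points) with the mean of 4 (bars), by mitotype (A, D) and diet, on an axis that starts at 35%. Alstonville 1:2 libraries lie at 40.7 to 46.3% and those of Alstonville 1:16 at 51.9 to 55.4%, and Dahomey 1:2 replicate 4 stands at 51.7%.

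Genes around the core pathway were read from lists of 40 genes in 5 groups. Over all genes tested, the shares called higher on 1:16 were those given above, and 29.3% were called lower in Alstonville and 24.4% in Dahomey. Of 7 hexokinase and sugar transporter genes 2 rose and 1 fell on 1:16 in Alstonville, and 1 rose and 1 fell in Dahomey. Hex-C, a hexokinase gene with low levels, rose by 2.70 ± 0.34 (adjusted p = 1.92e-05) from 0.805 to 1.94 CPM to 6.51 to 9.46 CPM in Alstonville. In Dahomey it rose by 2.35 ± 0.34 (adjusted p = 1.52e-04) from 0.351 to 0.728 CPM to 1.55 to 3.07 CPM, and on the 1:16 diet it was lower in Dahomey by a log2 fold change of -1.68 ± 0.32 (adjusted p = 0.00495). The trehalose transporter Tret1-1 rose in Alstonville by 0.42 ± 0.13 (adjusted p = 0.0136), and the glucose transporter Glut1 was lower on 1:16 in Dahomey, at -0.78 ± 0.30 (adjusted p = 0.0469). Hex-A, a hexokinase gene named after its values were seen, had group means from 159 CPM (Dahomey 1:2) to 258 CPM (Alstonville 1:16). It was called neither for diet nor for mitotype.

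Of 11 genes for other steps of glycolysis and paralogs of the core enzymes 2 rose and 2 fell in Alstonville, and 2 rose and 0 fell in Dahomey. The 2 that rose in both were Pfrx, whose product makes and removes the fructose bisphosphate that activates phosphofructokinase, by 1.11 ± 0.14 and 0.74 ± 0.13 (adjusted p = 1.68e-05 and 6.72e-04), and Pglym78, the phosphoglycerate mutase between Pgk and Eno, by 1.41 ± 0.46 and 1.55 ± 0.46 (adjusted p = 0.0168 and 0.0123). The median of this list was -2.09 in Alstonville and -1.12 in Dahomey, below that of all genes tested. Several of its genes had low levels that varied between libraries of 1 group, as male and testis markers did. Ald2, an aldolase paralog named after its values were seen, ran from 0 to 6.77 CPM in Alstonville 1:2 and from 0 to 0.166 CPM in Alstonville 1:16, and the testis marker betaTub85D from 0.0402 to 62.5 CPM and from 0.0885 to 1.43 CPM. The marker roX1 went the other way, from 15.8 to 190.5 CPM in Alstonville 1:2 and from 112.6 to 503.5 CPM in Alstonville 1:16. The 8 male and testis markers had a median log2 fold change of -1.26 in Alstonville, with 3 positive values. In Dahomey the median was 0.17, with 5 positive values. The part of these markers in the list's median was not tested. Of 3 tested genes for gluconeogenesis, the reverse route, 2 rose and 1 fell in each mitotype. PCB, pyruvate carboxylase, rose by 0.65 ± 0.15 and 0.89 ± 0.15 (adjusted p = 0.00164 and 3.69e-04). Pepck2, a phosphoenolpyruvate carboxykinase, had a log2 fold change of -2.18 ± 0.44 in Alstonville (adjusted p = 8.29e-04), and fbp, fructose bisphosphatase, rose in Dahomey by 1.23 ± 0.37 (adjusted p = 0.0146).

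Of 12 genes of the glycerol-3-phosphate shuttle and of pyruvate use 8 rose in Alstonville and 7 in Dahomey on the 1:16 diet, and 0 fell. The shuttle passes cytosolic NADH to the respiratory chain and so competes with lactate dehydrogenase for it. Gpo1, its mitochondrial enzyme, had the largest change among those called, by 4.67 ± 0.55 in Alstonville and 4.46 ± 0.55 in Dahomey (adjusted p = 1.40e-05 and 5.58e-05), from 7.06 to 53.8 and 7.59 to 15.5 CPM on 1:2 to 520 to 592 and 169 to 294 CPM on 1:16. Gpdh1, the cytosolic enzyme, named after its values were seen, rose by 3.06 ± 0.55 and 3.41 ± 0.56 (adjusted p = 3.47e-04 and 3.72e-04). Pdhb, a subunit of the pyruvate dehydrogenase complex, rose by 2.15 ± 0.26 and 1.69 ± 0.26 (adjusted p = 1.66e-05 and 2.33e-04).

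Pdk, the kinase that switches pyruvate dehydrogenase off, was the only gene of the 5 lists called between mitotypes on both diets. Its levels on the 1:2 diet were 190 to 249 CPM in Alstonville and 80.4 to 117 CPM in Dahomey, and on the 1:16 diet 205 to 411 and 122 to 141 CPM, without overlap on either. Dahomey over Alstonville it had a log2 fold change of -1.11 ± 0.18 on 1:2 (adjusted p = 0.0442) and -1.17 ± 0.18 on 1:16 (adjusted p = 0.00163). The call on 1:2 was lost in some fits, where 0 of all genes tested were called between mitotypes on that diet. These fits left out Dahomey 1:2 replicate 2 or 3, or Dahomey 1:16 replicate 2, 3 or 4. Another held only the 8 libraries compared.

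Of 6 transcriptional regulators of sugar metabolism and glycolysis 5 rose and 1 fell on 1:16 in Alstonville, and 3 rose and 1 fell in Dahomey. The zinc finger gene sug, which sugar feeding switches on, rose by 3.20 ± 0.32 in Alstonville and 4.33 ± 0.34 in Dahomey (adjusted p = 4.52e-06 and 3.27e-06). Its level was 9.63 to 23.2 and 5.95 to 12.7 CPM on 1:2 and 106 to 184 and 125 to 238 CPM on 1:16. The gene tgo, which encodes the partner of the hypoxia factor Sima, had log2 fold changes of -0.99 ± 0.13 and -0.87 ± 0.13 (adjusted p = 2.62e-05 and 1.77e-04). Between mitotypes bigmax, the partner of the sugar sensor Mondo, was lower in Dahomey on 1:16, at -0.35 ± 0.09 (adjusted p = 0.0203). For the 5 lists 0 genes were called for the interaction.

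The 5 genes outside the 10 whose pattern over the 16 libraries was most like theirs, by Pearson correlation of log2 CPM with the mean of the 10 after standardising each, were Pglym78 (r = 0.999), Nipsnap (0.994), CG5023 (0.993), CG6567 (0.993) and Mpi (0.992). Pglym78 encodes the glycolytic step missing from the 10, and Mpi the isomerase that turns mannose phosphate into fructose phosphate. These correlations are descriptions over libraries that fall into groups of 2 diets and share depth and scaling. After each group's mean was taken away they were 0.974 to 0.997. These values include Alstonville 1:2 replicate 4, which lay far from its group, and were not computed without it. Pglym78 gave 166 ± 155 and 119 ± 35.8 CPM on 1:2 in Alstonville and Dahomey, and 441 ± 18.1 and 350 ± 85.2 CPM on 1:16.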

How the data were processed

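RNA-seq was made from 16 libraries, 4 for each mitotype and diet. The authors enriched poly(A) RNA, sequenced paired ends, aligned the reads with Subread (Release 6 plus ISO1 MT) and counted them per gene with featureCounts, and the deposited values are whole-number counts that had not been normalised. Strand setting and treatment of multi-mapping reads were not given in the sources used here.

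The 10 genes were matched by symbol to gene identifiers. Counts were scaled with TMM and tested with the quasi-likelihood test of edgeR 4.0.16 (R 4.3.3, robust fit, 1 coefficient per group over all 16 libraries) on the 12750 genes that reached 0.25 CPM in 4 or more libraries, with Benjamini-Hochberg adjustment and a threshold of 0.05. The interaction was the mitotype difference on 1:16 minus that on 1:2. The Gapdh1 share was tested with an exact two-sided permutation test. Alternatives were other scaling factors, no filter, DESeq2 1.42.0, limma 3.58.1 with 0 to 3 surrogate variables, a replicate block, the compared libraries alone, and each library left out. Leaving out Alstonville 1:2 replicate 4 and Dahomey 1:16 replicate 2 together was chosen after seeing the data.

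Of each list at most the 2 called genes with the lowest p per comparison were named, and Hex-A, Ald2 and Gpdh1 were added after their values were seen. The members and lists were chosen with earlier results of these data known. The planned search for promoter motifs was not run, since no promoter sequences were used here. Within groups no pair of libraries agreed within sampling noise.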

Additional observations from a re-analysis of the deposited data

Results flagged for a closer look

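Dixon's test was applied to 48 groups of 4 libraries (12 quantities in each of the 4 groups). Of these 48, 16 held a library whose gap to its nearest neighbour exceeded the 95% critical value. Chance gives about 1 in 20 for a single test, but the 48 tests were not independent. The quantities include the sum of the genes, and deviations from group means correlated between genes at 0.881 to 0.995. The count of 16 therefore cannot be set against that rate.

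Most of the 16 came from Alstonville 1:2 replicate 4, which stood above its group for all 10 genes. It held 639 CPM of Pgi, 322 of Pfk, 2329 of Ald1, 813 of Tpi, 1676 of Gapdh1, 2438 of Gapdh2, 350.1 of Pgk, 1774 of Eno, 883 of Pyk and 426 CPM of Ldh, and 11649 CPM over the 10. In Alstonville 1:16 replicate 2 was the highest for Ald1 (3523 CPM), Pgk (435 CPM) and the sum of the 10 (14482 CPM), within a group whose libraries otherwise lay close together. In Dahomey 1:2 replicate 2 stood apart for Ldh (155 CPM), and replicate 4 for the Gapdh1 share (51.7%). That replicate 4 also had the highest sum of male and testis markers of its group, 866 CPM. No quantity of Dahomey 1:16 replicate 2 passed the test.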

How the results depend on the processing

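The diet differences of the 10 genes kept their positive direction under every alternative, and 0 of the 10 were called between mitotypes on 1:2 or for the interaction under any. Counts of called genes changed to 7 for mitotype on 1:16 with 3 surrogate variables in limma-trend and to 4 for diet in Alstonville with only the 8 libraries compared, and with 1 library left out the count for diet ran from 5 to 10 in Alstonville and from 7 to 10 in Dahomey. The Alstonville call of Tpi was lost with relative log expression factors, without the filter and with only the 8 libraries compared, and the last also ended those of Pgi (adjusted p = 0.0736), Gapdh1 (0.0526), Eno (0.0761) and Ldh (0.0659). The cause was not tested.

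Signs of small mitotype and interaction values also changed. For the interaction, limma-trend with each number of surrogate variables gave -0.22 for Pgi, -0.30 for Pfk, -0.29 for Ald1, -0.12 for Tpi, -0.28 for Gapdh1 and -0.29 for Eno. Relative log expression factors and DESeq2 gave 0.028 for Pgk and 0.036 for Pyk, and upper-quartile factors 0.10 for both. On the 1:16 diet upper-quartile factors gave mitotype differences of 0.0075 for Tpi and 0.030 for Gapdh2. They shifted the median of all genes by 0.13 for mitotype on 1:16 and for the interaction, and the share of higher calls among all genes was 39.2% with TMM, 52.2% with relative log expression and 69.8% with upper-quartile factors for the former, and 48, 63.1 and 83.2% for the latter.

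Replicate numbers were not shown to pair the samples. Deviations of same-numbered libraries of different groups correlated between -0.825 and 0.767, with a median of 0.086 over 24 pairs. Those of different-numbered libraries correlated between -0.840 and 0.878, with a median of -0.027 over 72 pairs. With the replicate number as a block the members called stayed at 9 for diet in each mitotype, and the interaction was -0.071 for Pgi, -0.17 for Pfk, -0.15 for Ald1, -0.16 for Gapdh1 and -0.14 for Eno.

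Without Alstonville 1:2 replicate 4 and Dahomey 1:16 replicate 2, picked partly by the levels of the 10 genes, the mitotype difference on 1:2 was 0.49 for Pgi, 0.48 for Pfk, 0.56 for Ald1, 0.63 for Tpi, 0.49 for Gapdh1, 0.43 for Gapdh2, 0.31 for Pgk, 0.56 for Eno, 0.50 for Pyk and 0.65 for Ldh. On 1:16 it was 0.017 for Tpi, 0.022 for Gapdh2 and 0.0018 for Ldh. The interaction was -0.67 for Pgi, -0.67 for Pfk, -0.72 for Ald1, -0.61 for Tpi, -0.62 for Gapdh1, -0.41 for Gapdh2, -0.73 for Eno and -0.65 for Ldh.

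With 1 library left out the mitotype difference on 1:2 ran from -0.81 to 0.49 for Pgi, -0.65 to 0.48 for Pfk, -0.65 to 0.56 for Ald1, -0.82 to 0.63 for Tpi, -0.55 to 0.49 for Gapdh1, -0.78 to 0.43 for Gapdh2, -0.47 to 0.31 for Pgk, -0.70 to 0.56 for Eno, -0.67 to 0.50 for Pyk and -1.53 to 0.65 for Ldh. On 1:16 it ran from -0.27 to 0.017 for Tpi, -0.22 to 0.022 for Gapdh2 and -0.31 to 0.0020 for Ldh. The interaction ran from -0.81 to 0.49 for Pgi, -0.83 to 0.30 for Pfk, -0.87 to 0.36 for Ald1, -0.76 to 0.71 for Tpi, -0.77 to 0.27 for Gapdh1, -0.54 to 0.67 for Gapdh2, -0.58 to 0.19 for Pgk, -0.87 to 0.39 for Eno, -0.91 to 0.28 for Pyk and -0.82 to 1.39 for Ldh. The Gapdh1 share between diets in Dahomey ran from 3.96 to 6.57 points, the highest without Dahomey 1:2 replicate 4 (adjusted p = 0.0381, exact permutation test). That library was the one flagged for this same share, so the value without it is a description. With all libraries the adjusted p of the same test was 0.190. Between mitotypes on 1:2 the difference of medians of the share was -0.083 points.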
